A study of Homo sapiens with 8 samples.

Results

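Of the protein-coding genes expressed in every library of M1, M2 and M3, 86 were at least 4-fold lower in both M4 libraries. Levels were taken as CPM, a gene's count divided by the total count of its library and multiplied by 1000000. A gene was included when its lowest CPM among the 6 libraries of M1, M2 and M3 was at least 1 and its highest CPM in M4 was at most 0.25 times that lowest value. The 86 genes were 0.779% of the 11039 protein-coding genes that reached 1 CPM in all 6 libraries, out of 19320 protein-coding genes and 56632 genes in the table. Since the levels in M4 chose these genes, their drop in M4 is described below without a test, and "lost" stands for this 4-fold gap and not for absence.

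The 4 lines form a human breast epithelial progression series. M1 is MCF10A, an immortalised line from non-malignant breast epithelium. M2 is MCF10AT1k.cl2, made from M1 by transfection with T24-HRAS and recovered from a xenograft. M3 (MCF10Ca1h) and M4 (MCF10CA1a.cl1) were both derived from carcinomas that grew from M2 xenografts, so both descend from the transfected line. Poly A+ RNA was sequenced from acini grown for 8 days in Matrigel with 2% horse serum, with 2 biological replicates per line. EGF (10 ng/ml) was given to M1 and M2 and left out of the medium of M3 and M4. EGF therefore differs between M4 and both M1 and M2, and does not differ between M4 and M3. The part of EGF in the losses was not tested. Each stage is a single line, M2 and M4 being clones by name, so the replicates measure the spread between cultures of that line and not between tumours.

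Library totals ran from 69669970 to 107350344 counts. HRAS was at 136 to 158 CPM in M1 and at 155 to 362 CPM in the 6 libraries of the other lines, so M2 and M1 overlapped, and these values do not measure the transgene itself. Of 10 markers of mammary epithelium, 9 were above 1 CPM in every library. The basal keratin KRT14 was at 2.43 and 2.81 CPM in M4 and at 8.11 to 91.8 CPM elsewhere, KRT5 at 3455 and 2911 CPM against 5409 to 9279 CPM, and TP63 at 38.2 and 40.8 CPM against 55.4 to 106.5 CPM. The luminal keratins KRT8 (2412 and 1387 CPM, against 741 to 1138 CPM) and KRT18 (2208 and 1375 CPM, against 424 to 973 CPM) and KRT7 (4583 and 2925 CPM, against 819 to 2115 CPM) lay above the other lines in both M4 libraries. Other keratins did not follow this split. The basal keratin KRT17 (3501 and 2173 CPM in M4) lay within the range elsewhere, 1168 to 5221 CPM. So did the luminal keratin KRT19 (0.904 and 0.762 CPM, against 0.370 to 3.81 CPM). The immune markers PTPRC and CD3E did not exceed 0.0359 CPM in any library. The 7 markers of fibroblasts and stroma summed to 6.60 to 8.03 CPM in M4 and 9.13 to 74.5 CPM elsewhere, mostly DCN and COL1A1. The 6 immune markers summed to 41.1 to 56.5 CPM in M4 and 8.69 to 35.2 CPM elsewhere, mostly CD68 and CD14. CD68 and CD14 went opposite ways. CD68 was higher in M4 (54.3 and 39.98 CPM, against 3.95 to 22.6 CPM elsewhere). CD14 was lower there (2.14 and 1.09 CPM, against 2.42 to 25.2 CPM elsewhere). The part of these epithelial, stromal and immune markers in the losses was not tested, and in bulk RNA fewer cells with a transcript and less transcript per cell cannot be told apart. The study's supplementary tables assign the libraries labelled M1 replicate 2 and M2 replicate 1 to each other's line. The sample labels were followed here. By the Spearman correlation across genes (genes are not independent replicates) the labelled M2 libraries were the pair most alike, at 0.993, and the labelled M1 libraries reached 0.975. The assignment cannot change which genes were chosen, because the rule pools M1, M2 and M3, and with both libraries left out the rule returned 93 genes that included all 86. It does bear on the comparisons among M1, M2 and M3, where both assignments are given.

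A gene can fall silent in a carcinoma line through methylation of a CpG-rich promoter, through loss of an activating factor, or through loss of the DNA itself. When a chromosome segment is lost or silenced as a unit, neighbouring genes tend to be affected together, whereas loss of a factor touches targets scattered over the genome. Levels of poly A+ RNA do not tell these routes apart.

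The starts of 4 of these genes show how different their promoters were. Members from part of the genome were left out of this choice, whatever their counts. Among the remaining members with at most 10 counts in both M4 libraries, 7 began at the outermost annotated start of the gene and had no annotated exon in the 250 bases before it. EHD3 and WFDC2 had the highest and SULT1E1 and CAPN6 the lowest ratio of observed to expected CpG among these 7. The extremes hold for these 7 only, since a member left out by position, with 8 counts and 1 count in M4, had a higher ratio, 0.893. Whether its window was free of annotated exons is not reported. EHD3 encodes a protein of endosomal membrane recycling, WFDC2 a secreted protein with whey acidic protein domains, SULT1E1 the estrogen sulfotransferase, and CAPN6 a member of the calpain family that lacks protease activity. The 250 bases before each start, read 5′ to 3′ on the strand of the gene from GRCh37, are given with every CpG in capitals. They lie at chr2:31456768-31457017 (plus strand), chr20:44098143-44098392 (plus strand), chr4:70725864-70726113 (minus strand) and chrX:110513712-110513961 (minus strand).
EHD3: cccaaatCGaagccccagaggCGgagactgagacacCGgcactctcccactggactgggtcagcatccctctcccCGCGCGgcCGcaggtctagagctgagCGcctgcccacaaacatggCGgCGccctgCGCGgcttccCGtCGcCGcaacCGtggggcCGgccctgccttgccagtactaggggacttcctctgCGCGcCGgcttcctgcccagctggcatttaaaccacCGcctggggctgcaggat
WFDC2: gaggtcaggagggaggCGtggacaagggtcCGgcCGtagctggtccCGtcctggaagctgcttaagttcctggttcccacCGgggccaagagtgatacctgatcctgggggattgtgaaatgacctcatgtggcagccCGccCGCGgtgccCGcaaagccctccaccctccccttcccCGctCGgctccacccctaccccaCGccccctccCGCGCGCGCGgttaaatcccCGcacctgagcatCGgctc
SULT1E1: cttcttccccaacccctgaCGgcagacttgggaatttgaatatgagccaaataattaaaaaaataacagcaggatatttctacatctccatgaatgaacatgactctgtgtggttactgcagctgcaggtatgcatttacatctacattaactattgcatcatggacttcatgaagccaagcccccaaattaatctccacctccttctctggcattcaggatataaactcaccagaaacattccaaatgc
CAPN6: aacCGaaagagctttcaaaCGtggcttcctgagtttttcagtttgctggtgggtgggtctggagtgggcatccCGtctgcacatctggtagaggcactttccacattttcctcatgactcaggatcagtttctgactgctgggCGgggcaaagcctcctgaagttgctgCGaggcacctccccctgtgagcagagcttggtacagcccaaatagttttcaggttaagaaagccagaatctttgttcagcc
The EHD3 window held 21 CpGs, the WFDC2 window 19, the CAPN6 window 5 and the SULT1E1 window 1. The observed to expected ratio was 0.731 for EHD3, 0.687 for WFDC2, 0.296 for CAPN6 and 0.103 for SULT1E1. Both kinds of promoter thus stood before genes with at most 9 counts in either M4 library.

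Over all 86 genes, 43 (50%) had a CpG-rich window, defined as over 50% G and C with an observed to expected ratio above 0.6. The share was 84.1% among the 10898 other protein-coding genes with at least 1 CPM in all 6 libraries for which a start was annotated. CpG-poor promoters are commonly found before genes of restricted expression, and the genes lost in M4 were also low in level. When only genes with a lowest CPM under 10 were taken, the share was 48.6% of 72 members and 75.9% of 3035 other genes. The letters TATAAA on either strand were in the windows of 10 members (11.6%) and 4.46% of the other genes. GGGCGG, on either strand, was present before 62.8% of members and 73.8% of the others. These are descriptions of letters in a window and name no bound factor. By function, CpG-rich windows stood before 3 of 17 secreted and matrix genes and 1 of 5 innate immunity genes, and before 12 of 18 genes of receptors, adhesion and membrane proteins.

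The loss was graded. In 6 genes the highest M4 level was at most 0.01 times the lowest level elsewhere, in 14 it was between 0.01 and 0.05, in 16 between 0.05 and 0.1, in 29 between 0.1 and 0.2, and in 21 between 0.2 and 0.25. The median ratio was 0.135. Without M4 replicate 1 the rule returned 144 genes, the 86 among them, since a single M4 value then had to meet it. At this depth 1 gene had no counts in either M4 library and 6 had 3 counts or fewer in both, whereas 15 kept over 100 counts in at least 1 M4 library and 17 were above 1 CPM in at least 1 M4 library, 11 of them in both. The genes nearest the limit on the inside were CYP39A1 (ratio 0.247), EVA1C (0.246) and DEPTOR (0.240), and the nearest outside were GGT6 (0.253), MAOB (0.254) and CKMT1B (0.259). The members were mostly of modest level, with a median lowest CPM of 3.33 in M1 to M3, against 21.8 over the 11039 genes.

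**Figure D1:**
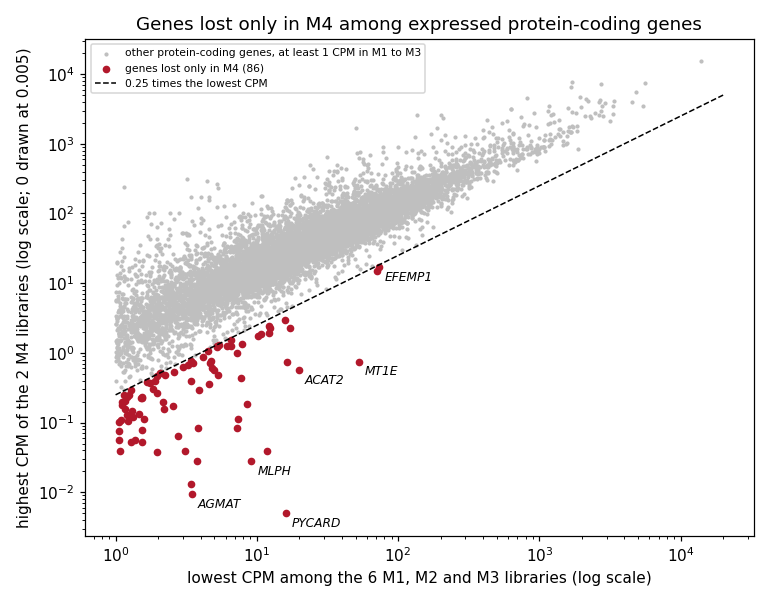
Highest CPM of the 2 M4 libraries against the lowest CPM of the 6 M1, M2 and M3 libraries, both on log axes, for the 86 genes (red) and the other protein-coding genes with at least 1 CPM in M1 to M3 (grey). The dashed line is the limit of 0.25, and PYCARD, with no count in M4, is drawn at 0.005.

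PYCARD had the deepest loss. It encodes ASC, the adaptor that joins inflammasome sensors to caspase-1, and lies on chromosome 16 (31212807 to 31214771, minus strand, GRCh37). It was at 45.5 and 49.5 CPM in M1, 30.4 and 31.3 CPM in M2, 26.7 and 16 CPM in M3, and 0 in both M4 libraries. A count of 0 allows up to 0.0279 and 0.0394 CPM in these libraries (3 counts each, counting error only), so the lowest level elsewhere was at least 406-fold higher. The antisense gene PYCARD-AS1 covers 59.7% of the PYCARD exon bases, and whether the counting used strand is not stated. PYCARD-AS1 itself was not called in M4 (log2 fold change 0.40, adjusted p = 0.81).

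Around PYCARD the inflammasome genes did not move together. A gene was called when its adjusted p was under 0.05 and its absolute log2 fold change above 1, which 7.76% of the 18431 genes tested met as lower and 7.58% as higher in M4. Of 18 tested genes of inflammasomes and pyroptosis, with a median log2 fold change of -0.05, 2 were lower in M4 than the mean of M1, M2 and M3, PYCARD itself and CARD8, and 2 were higher, IL1B and GSDMA. IL1B, the cytokine released downstream of caspase-1, was at 0.419 to 0.854 CPM in M1 and M2, 12.4 and 8.93 CPM in M3, and 96.9 and 34.5 CPM in M4. Its rise in M4 was 5.32 ± 0.37 on the log2 scale (SE, edgeR quasi-likelihood test, adjusted p = 0.00016). CARD8, a sensor of the same family, was at 8.27 to 12 CPM in the other lines and at 4.42 and 4.29 CPM in M4 (log2 fold change -1.35 ± 0.17, adjusted p = 0.0014). GSDMA, a gasdermin, was at 2.33 and 0.434 CPM in M4 and was no longer called when M4 replicate 1 was left out (log2 fold change 1.19). The sensors NLRP1 and NLRP3, CASP1, IL18 and GSDMD did not pass the test.

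Enzymes and proteins that handle lipids, metals and small molecules made up 9 of the 86. AGMAT, annotated as agmatinase, stood at 5.17 and 3.47 CPM in M1, 5.92 and 5.58 CPM in M2, 3.49 and 6.91 CPM in M3, and at 1 count and 0 counts in M4. MT1E, a metallothionein that binds zinc and copper, reached 323 and 347 CPM in M2 and 52.8 CPM at the lowest in M3, and was at 0.0932 and 0.749 CPM in M4. Metallothionein genes are near-identical copies, so reads can be divided between them by the counting. Of the 3 other metallothioneins tested, MT1X was lower in M4 (17.9 and 11.4 CPM, against 65.1 to 258 CPM elsewhere, log2 fold change -2.99 ± 0.57, adjusted p = 0.0090), a call lost without either M4 replicate, and MT1F and MT2A were not called.

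SULT1E1, which inactivates estrogens by sulfation, was at 104 and 31.3 CPM in M1, 31.9 and 33.7 CPM in M2, 14.6 and 3.83 CPM in M3, and 0.0838 and 0.0526 CPM in M4. Among 6 other cytosolic sulfotransferases SULT1A1 and SULT1A2 were lower in M4 and SULT2B1 was higher. SULT1A1 went from 12.6 to 24.5 CPM in the other lines to 4.14 and 5.55 CPM (log2 fold change -2.05 ± 0.31, adjusted p = 0.0029). STAR, the carrier of cholesterol into mitochondria, and CYP39A1, an oxysterol hydroxylase, were low throughout, with at most 2.90 and 10.4 CPM in any library.

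ACAT2 was lost in M4 while 18 of 19 later enzymes of its pathway were higher there. It encodes the cytosolic thiolase that joins acetyl-CoA units into acetoacetyl-CoA, the entry to cholesterol synthesis, and lies on chromosome 6 (160183077 to 160200144, plus strand). ACAT2 was at 39.4 and 19.9 CPM in M1, 57.2 and 54.6 CPM in M2, 92.1 and 81.7 CPM in M3, and 0.540 and 0.572 CPM in M4 (58 and 43 counts). The 2 M4 values were 34.8-fold or more below every other library. The median log2 fold change of the 19 later enzymes was 1.93. HMGCS1, the next enzyme, was at 50.5 to 309 CPM in the other lines and at 1302 and 1676 CPM in M4 (log2 fold change 3.29 ± 0.20, adjusted p = 9.7e-05). Of the 19, PMVK alone was not called. This list was drawn up once ACAT2 was known to be a member, and the rise of the pathway was already known, so it is no independent evidence.

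None of the 5 other thiolases was called in M4. ACAT1, the mitochondrial acetoacetyl-CoA thiolase, was at 95.9 to 147 CPM in the other lines and at 87.0 and 102 CPM in M4 (log2 fold change -0.38 ± 0.15, adjusted p = 0.091). ACAT2 shares 17.2% of its exon bases with TCP1 on the opposite strand, and TCP1 was not called either (log2 fold change 0.38). No coding neighbour of ACAT2 within 500 kb was called, of 5 tested.

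**Figure D2:**
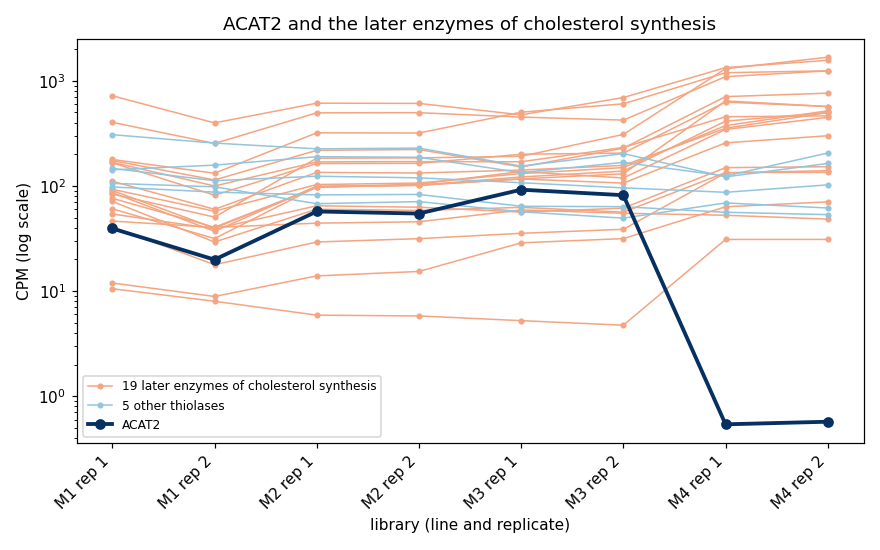
CPM (log axis) in each of the 8 libraries for ACAT2 (dark line), 19 later enzymes of cholesterol synthesis (orange) and 5 other thiolases (light blue). ACAT2 is below 1 CPM in both M4 libraries while 18 of the 19 later enzymes were called higher there.

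Secreted proteins, matrix proteins and proteases were 17 of the 86, with a median ratio of 0.145. CAPN6 was at 17.8 and 90.5 CPM in M1, 11.8 and 12.3 CPM in M2, 56.2 and 97.6 CPM in M3, and 0.0373 and 0.0394 CPM in M4, and its lowest level elsewhere was 300.1-fold above the highest in M4. TFPI, the inhibitor of tissue factor coagulation, was at 7.32 to 16.8 CPM outside M4 and at 0.112 and 0.0657 CPM in it. WFDC2 ranged from 1.98 CPM in M3 replicate 2 to 203 CPM in M1 replicate 2 and was at 4 and 2 counts in M4. The last gene shows how unequal the libraries outside M4 could be, since the 2 M3 replicates differed by more than 10-fold.

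Growth factor and matrix proteins in the group were IGFBP5, which binds insulin-like growth factors, ANGPT1, the ligand of the TIE2 receptor, MMP2, a gelatinase, SPP1 or osteopontin, and EFEMP1 or fibulin-3. IGFBP5 was at 2.76 to 18.3 CPM outside M4 and at 7 and 2 counts in M4. EFEMP1 was the member whose lowest library among M1 to M3 was highest (73.0 CPM, against 71.4 CPM for IL20RB). It ranged from 73.0 to 183 CPM in those lines and was at 16.9 and 8.08 CPM in M4. The loss of EFEMP1 was therefore partial, with 1810 and 615 counts remaining. Of 37 tested genes of matrix and basement membrane, 9 were lower in M4, EFEMP1 among them, and 6 were higher, including the laminin chains LAMA3 and LAMB3. Of 28 collagens, 8 were lower, the member COL27A1 among them, and 2 higher. The shares over all protein-coding genes tested were 8.54% lower and 7.61% higher. Beside MMP2, MMP7 and TIMP3 were lower of 11 other metalloproteinases and inhibitors, although MMP7 lost its call without M4 replicate 2 and TIMP3 without either.

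Receptors, adhesion molecules and other membrane proteins numbered 18, and none had 3 counts or fewer in both M4 libraries. IL20RB, a receptor chain for the IL-20 cytokines, was at 169 and 155 CPM in M1, 192 and 197 CPM in M2, 136 and 71.4 CPM in M3, and 8.01 and 14.9 CPM in M4. EMP3, a tetraspan membrane protein, was at 17.1 to 89.1 CPM outside M4 and at 1.14 and 2.30 CPM in M4. NTRK2, the receptor for brain-derived neurotrophic factor, was at 10.0 and 85.4 CPM in M1, 5.92 and 5.31 CPM in M2, 24.8 and 128 CPM in M3, and 0.317 and 0.486 CPM in M4. The NTRK2 replicates of M1 and of M3 were each over 5-fold apart, yet all 6 values lay above both of M4. Of 3 tested neurotrophin receptors and ligands besides NTRK2, NGFR and NTF4 were lower in M4, NGFR with log2 fold change -3.29 ± 0.69 (adjusted p = 0.013), a call lost without M4 replicate 2.

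The heparan sulfate proteoglycan SDC2 was at 2.18 to 12.5 CPM outside M4 and at 0.196 and 0.092 CPM in M4. Another syndecan, SDC3, was also lower (26.2 to 72.5 CPM outside M4, 10.4 and 10.3 CPM in M4, log2 fold change -2.21 ± 0.17, adjusted p = 0.00024), and 2 more were not called. EFNB3, a membrane-bound ligand of EPH receptors, had 2 lower relatives among 6 tested ephrins, EFNA3 (log2 fold change -2.08 ± 0.36, adjusted p = 0.0050) and EFNA4 (-1.42 ± 0.22, adjusted p = 0.0033). ABCG1, a cholesterol exporter, was at 4.58 to 31.4 CPM elsewhere and at 0.363 and 0.0526 CPM in M4.

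Signalling and trafficking genes were the largest group, with 19 members. MLPH, melanophilin, which ties RAB27A on vesicles to myosin Va, was at 17.2 and 11.2 CPM in M1, 17.2 and 16.2 CPM in M2, 9.14 and 13.5 CPM in M3, and at 3 and 2 counts in M4. Its partners RAB27A (log2 fold change -0.10) and MYO5A (0.70) were not called. DUSP2, a nuclear phosphatase of MAP kinases, was at 3.78 to 19.9 CPM outside M4 and at 3 counts and 1 count in M4. Of 9 other dual-specificity phosphatases, DUSP5 and DUSP8 were higher in M4, by 2.93 ± 0.12 (adjusted p = 6.9e-05) and 3.31 ± 0.36 (adjusted p = 0.00086), and none was lower. CAVIN2, a coat protein of caveolae, was at 16.3 to 51.4 CPM elsewhere and at 0.736 and 0.276 CPM in M4, whereas CAV1, CAV2, CAVIN1 and CAVIN3 were not called. DEPTOR, an inhibitor of mTOR, and SESN3, a stress-responsive sestrin, belonged to this group as well, and the mTOR complex subunits (5 tested) and other sestrins (2 tested) were not called.

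The 12 genes of transcription, RNA and DNA included developmental factors. PPARGC1A encodes PGC-1α, a coactivator of mitochondrial biogenesis, and was at 19.6 and 27.3 CPM in M1, 12.8 and 15.2 CPM in M2, 3.09 and 7.13 CPM in M3, and 0.0373 and 0.0394 CPM in M4. TBX18, a T-box repressor, was even across the other lines at 8.57 to 13 CPM and was at 0.186 and 0.0526 CPM in M4. TBX18 is an instance of a steady gene with a sharp drop, unlike most members. DBP, a PAR bZIP factor of the circadian clock, was at 4.82 to 18.4 CPM outside M4 and at 0.523 and 0.607 CPM in M4. Both other PAR bZIP factors were lower too, TEF (log2 fold change -2.67 ± 0.30, adjusted p = 0.00099) and HLF (-3.56 ± 0.82, adjusted p = 0.015). Of 10 partner genes of DBP tested, these with PER2 and CIART were lower, and PER3 and BHLHE40 were higher, each of the last pair losing its call without 1 of the M4 replicates.

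SLFN11, which blocks replication in damaged cells, was at 1.20 to 7.21 CPM outside M4 and at 0.128 and 0.0422 CPM in M4. ZNF585B has a near-identical copy, ZNF585A, that was not called (log2 fold change -0.13), so reads may be divided between them. Among 402 tested genes named ZNF, 35 were lower, ZNF585B among them, and 17 higher. HOXB2 was the only HOX gene lost, and of 23 tested HOX genes 6 were lower, HOXB2 among them, and 1 higher. For comparison, 8.54% of all protein-coding genes tested were lower in M4 and 7.61% higher.

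The 6 genes of cytoskeleton and cilium were ADD2, MYBPC1, BBS5, KATNAL2, ACTL8 and SHROOM2. ADD2, or beta-adducin, which caps actin at the spectrin network, was at 3.42 and 4.85 CPM in M1, 17.6 and 14.2 CPM in M2, 9.61 and 13.2 CPM in M3, and at 0 counts and 1 count in M4. MYBPC1, a myosin-binding protein of slow muscle, was at 7.19 to 18.1 CPM outside M4 and at 9 counts and 1 count in M4. BBS5, a subunit of the ciliary BBSome, was at 1.38 to 3.00 CPM elsewhere and at 6 and 0 counts in M4, whereas none of 7 other BBSome subunits was called. Besides PYCARD, the innate immunity genes included SECTM1, S100A8 and GIMAP2. S100A9, the partner of S100A8 in calprotectin, was also lower in M4 (log2 fold change -1.83 ± 0.35, adjusted p = 0.0084), a call lost without either M4 replicate.

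**Figure D3:**
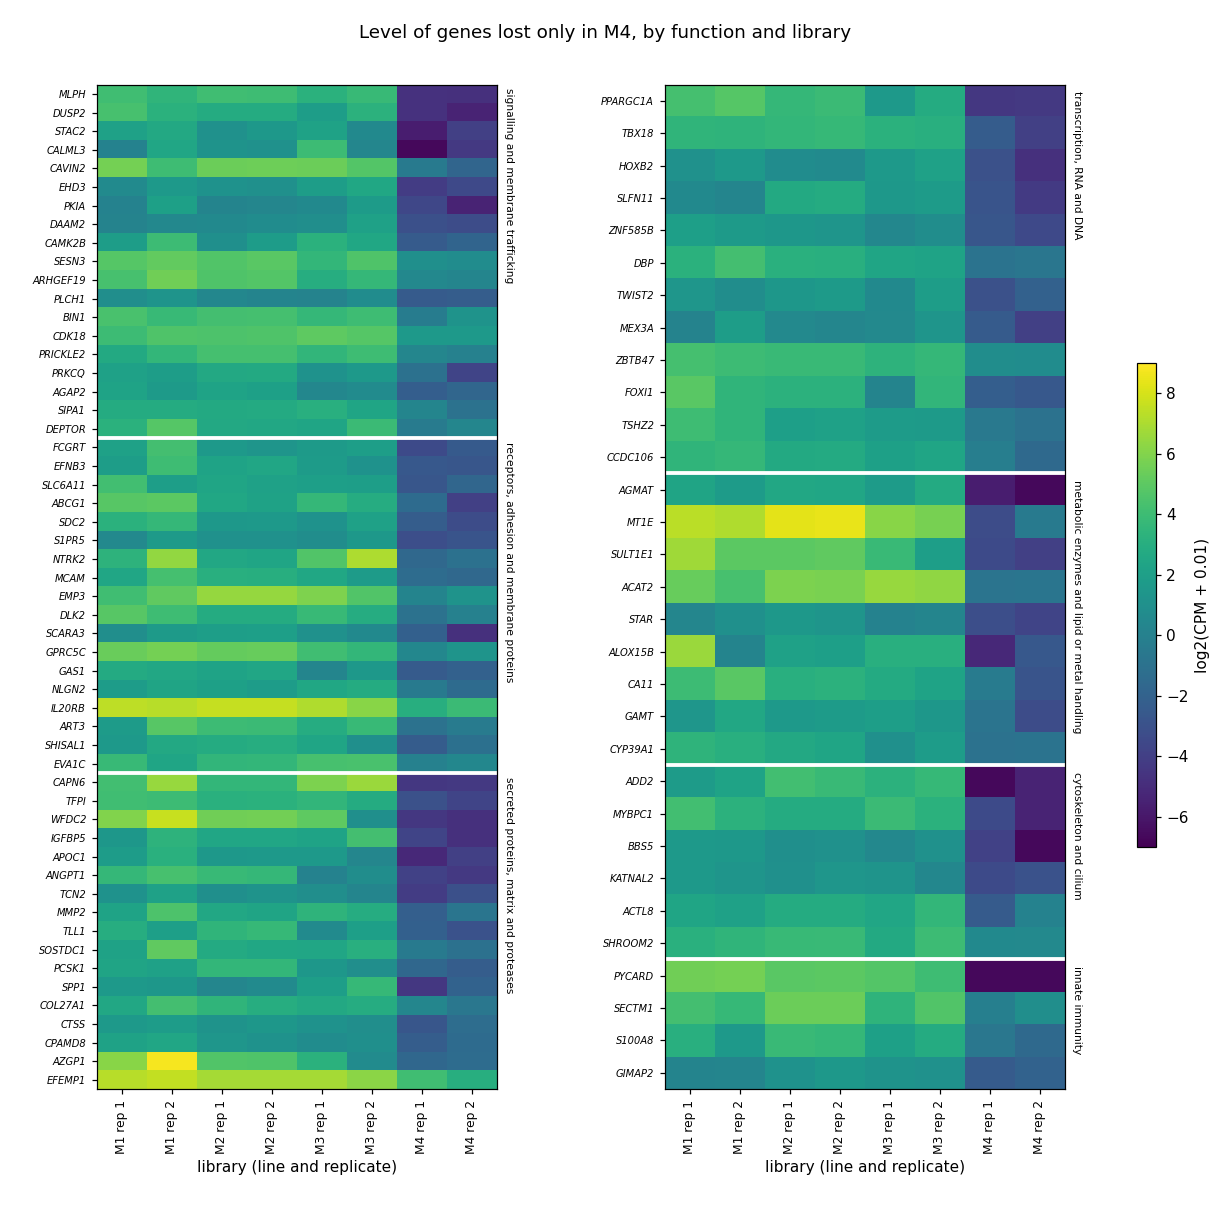
Level of the genes lost only in M4 (all but 1 of the 86), as log2(CPM + 0.01), in the 8 libraries, grouped by function and ordered within a group by the ratio of M4 to the other lines. The 2 M4 columns are darker than all other columns in every row, and the M1 and M3 columns differ between replicates in many rows.

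Over the partner lists, drawn up for 34 of the members after these were known, 151 genes other than members were tested. In M4, 21 of them (13.9%) were lower and 27 (17.9%) higher, 18 of the 27 being the cholesterol genes. The shares over all genes tested were 7.76% and 7.58%. All 86 members were among the lower genes, which the rule itself brought about. The longer lists written for silenced or cancer-related genes held few members. PYCARD alone was lost of 23 tested genes often reported as methylated in carcinoma, of which 6 were lower (PYCARD, CDH13, SFRP1, TIMP3, TWIST1 and HOXA5) and 5 higher (MGMT, RASSF1, SOCS1, THBS1 and CST6). Solute carriers held 1 member, SLC6A11, of 251 tested, and S100 genes 1 of 17.

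Among genes not coding for protein, the same rule returned 5 annotated genes, H19, LSP1P4, SNHG5, LINC01806 and LINC02381. H19, an imprinted RNA, was at 7.18 to 20.8 CPM outside M4 and at 0.0559 and 0.25 CPM in M4. LINC01806 was at 2.20 to 7.29 CPM outside M4 and at 0 in both M4 libraries. SNHG5 was the most abundant of them and was partly kept, at 36.1 and 33.9 CPM in M4 against 149 CPM or more elsewhere. With the rule turned on each of the other lines, 11 protein-coding genes were lost only in M1, 5 only in M2 and 11 only in M3, and 68 were gained only in M4 by the mirrored rule.

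The 86 genes were unevenly expressed in the lines that kept them. The highest of the 6 M1, M2 and M3 libraries exceeded the lowest by a median of 4-fold over the members and 1.78-fold over the 11039 genes. With the lowest CPM under 10, the medians were 4.11-fold for members and 2.36-fold for all. Replicates were more than 2-fold apart for 32 members in M1, 26 in M3, 39 in M4 and none in M2. With the doubted M1 and M2 libraries exchanged these counts were 26 in M1 and 38 in M2. By the labels, the median fold between replicates over the members was 1.61 in M1 and 1.59 in M3. Over the 11039 genes it was 1.19 and 1.25. In M4, 20 members had at most 10 counts in both libraries, where counting error is large. ALOX15B, a lipoxygenase, was the extreme case, at 98.2 CPM in M1 replicate 1 and 1.16 CPM in M1 replicate 2. The highest line mean was in M1 for 48 members, in M2 for 24 and in M3 for 14. With the exchange it was in M1 for 26, in M2 for 45 and in M3 for 15, so the line with the most high members depended on the assignment. The lowest single library was an M3 library for 49 members under either assignment.

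Whether the genes lost in M4 were already lower in M3 or M2 was examined in the comparisons among M1, M2 and M3. The rule used no difference among these lines, but it did use their lowest library. That library had to reach 1 CPM and 4 times the highest M4 level, which limited how low the members could be. The shares of members called are therefore not independent of how the genes were chosen. In M3 against M1, 15 of the 86 members were lower and 2 higher. Lower members were 17.4% of the 86, against 5.51% of all genes tested and 4.28% of the 11039. Higher members were 2.33%, against 8.02% of all genes tested. The median log2 fold change of the members was -0.56, and -0.02 over all genes.

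AZGP1, a secreted zinc-binding glycoprotein, had the largest drop in M3. It was at 70.4 and 442 CPM in M1, 25.3 and 23.8 CPM in M2, 9.17 and 1.66 CPM in M3, and 0.307 and 0.381 CPM in M4 (M3 against M1, log2 fold change -5.46 ± 1.12, edgeR, adjusted p = 0.016). ANGPT1 was at 12.8 and 20.1 CPM in M1, 13.7 and 12.6 CPM in M2, and 1.06 and 1.75 CPM in M3 (-3.50 ± 0.34, adjusted p = 0.00098). The groups did not overlap for either gene. SULT1E1 fell by 2.75 ± 0.73 (adjusted p = 0.038), PPARGC1A by 2.16 ± 0.36 (adjusted p = 0.0063) and TSHZ2, a zinc finger homeobox factor, by 1.99 ± 0.28 (adjusted p = 0.0036). The other 10 lower members were CYP39A1, SDC2, ARHGEF19, GAS1, GPRC5C, CPAMD8, AGAP2, DBP, ZNF585B and PYCARD, with log2 fold changes from -1.71 to -1.06. ACAT2 (1.64 ± 0.28, adjusted p = 0.0071) and ADD2 (1.52 ± 0.33, adjusted p = 0.017) were the higher members, and both were at most 1 CPM in M4.

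These calls depended on the assignment of the doubted libraries. With M1 replicate 2 and M2 replicate 1 exchanged, 1 member, ANGPT1, was called in M3 against M1. The exchanged pairs were less alike (Spearman correlation 0.968 and 0.971) than the labelled pairs (0.975 and 0.993). The share of all genes called with the exchange is not given, here or in the comparisons below. A loss of calls over all genes and one particular to members therefore cannot be told apart. With a single library of M1 or M3 left out, some of the members named above lost their call in every case, most often without M3 replicate 2. Such fits leave 1 library in a line, and other members can be called in them.

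In M2 against M1 few members moved. SLFN11 (2.37 ± 0.41, adjusted p = 0.021) and ADD2 (1.94 ± 0.34, adjusted p = 0.021) were higher, 2.33% of members against 2.26% of all genes. ABCG1 (-2.56 ± 0.56, adjusted p = 0.045), TSHZ2 (-1.72 ± 0.28, adjusted p = 0.017) and SDC2 (-1.87 ± 0.41, adjusted p = 0.045) were lower, 3.49% of members against 1.11% of all genes. No member was called with the libraries exchanged. With any single library of M1 or M2 left out, most or all of the members named here lost their call. Such fits leave 1 library in a line.

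In M3 against M2 no member was higher, against 2.95% of all genes, and 3 (3.49%) were lower, against 1.20%. ANGPT1 fell by 3.17 ± 0.33 (adjusted p = 0.0037). PCSK1, a prohormone convertase at 11.8 and 12 CPM in M2 and 2.78 and 1.85 CPM in M3, fell by 2.27 ± 0.34 (adjusted p = 0.011). AGAP2, a GTPase-activating protein, fell by 1.57 ± 0.34 (adjusted p = 0.042). ANGPT1 alone was still called with the libraries exchanged, and 1 member was called when either M2 replicate was left out, against 5 without M3 replicate 2. The 3 comparisons share libraries and are not independent of each other.

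**Figure D4:**
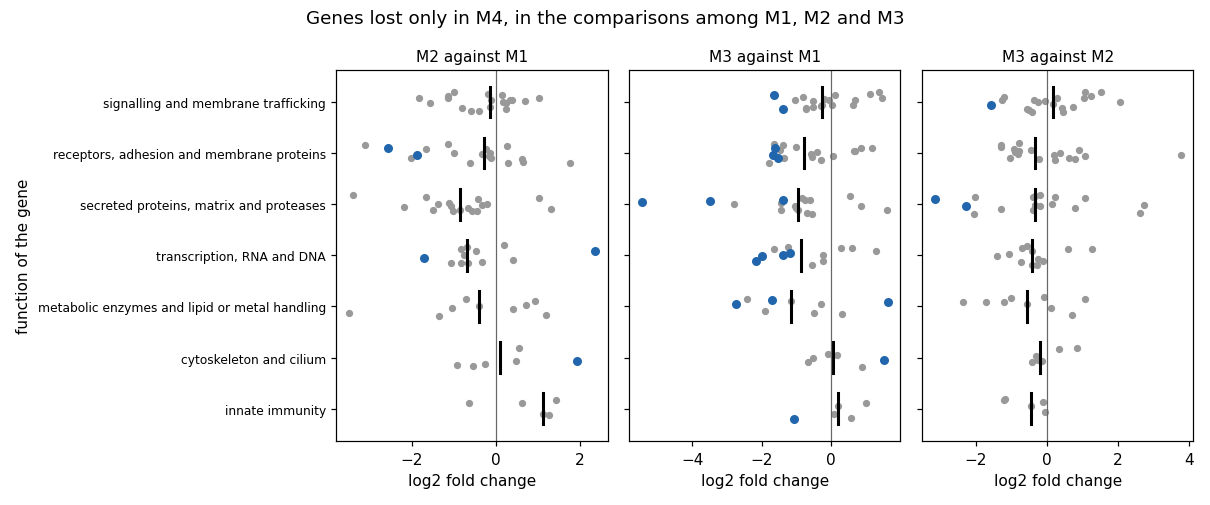
Log2 fold change of each of the 86 genes in the 3 comparisons among M1, M2 and M3 (x axis, a separate scale in each panel), by function (y axis), with called genes in blue and group medians as black bars. In M3 against M1, 15 genes are called to the left of 0 and 2 to the right.

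The 86 genes lay on many chromosomes. Chromosome 2 held 11, chromosome 19 held 10, chromosomes 1 and 17 held 8 each and chromosome 8 held 6, while chromosomes 13, 14 and 15 held none. As a share of the protein-coding genes expressed in M1 to M3, members were 1.49% on chromosome 2, 1.33% on chromosome 19, 1.23% on chromosome 17 and 1.57% on chromosome 8, against 0.779% over all. The highest share was on chromosome 21, 1.96%, from 2 members of 102 genes. Chromosome 4 was at 1.22% and chromosome 1 at 0.705%. On chromosome 19, 88 of the 743 expressed genes that were not members (11.8%) were lower in M4, against 6.56% over all chromosomes. The share on chromosome 2 was 6.59%.

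Another member lay within 500 kb of 6 members (6.98%), and within 100 kb of 2. Within 500 kb the same count was 7 of the 68 genes gained only in M4 (10.3%) and 4 of 38 gained only in M3 (10.5%). It was 2 of 27 gained only in M1 (7.41%) and 2 of 11 lost only in M3 (18.2%). No gene lost only in M1, lost only in M2 or gained only in M2 had such a neighbour. The share for expressed genes at large was not determined, so whether 6.98% is low or high is not known. The 6 members formed a pair of loci. On chromosome 19, DBP (49133287 to 49140636) and CA11 (49141203 to 49149444), which encodes a carbonic anhydrase-related protein, lie 567 bases apart on the minus strand, and EMP3 (48824766 to 48833810, plus strand) lies 299477 bases from DBP. CA11 was at 15.8 and 30.1 CPM in M1, 8.67 and 9.57 CPM in M2, 6.84 and 4.77 CPM in M3, and 0.764 and 0.131 CPM in M4. Of 40 other protein-coding genes tested within 500 kb of DBP, 10 were lower in M4 and 5 higher, and their median log2 fold change was -0.58. LMTK3, a kinase gene, was lower there (2.10 to 4.85 CPM outside M4, 0.568 and 0.513 CPM in M4, log2 fold change -2.73 ± 0.30, adjusted p = 0.00081), as were CARD8 and GYS1, the muscle glycogen synthase (-1.30 ± 0.15, adjusted p = 0.0011).

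Further along chromosome 19, FCGRT, the neonatal Fc receptor, lies 860629 bases from CA11. Of its 43 coding neighbours within 500 kb, 9 were lower and none higher, with a median of -0.73, and they include ribosomal protein genes such as RPL13A (log2 fold change -1.47 ± 0.23, adjusted p = 0.0034).

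The second locus is on chromosome 17, with NLGN2 (7308193 to 7323179), a neuroligin, EFNB3 (7608520 to 7614690) and ALOX15B (7942352 to 7952452), all on the plus strand. EFNB3 was at 3.79 and 16.6 CPM in M1, 4.92 and 5.45 CPM in M2, 3.43 and 2.19 CPM in M3, and 0.158 and 0.145 CPM in M4. NLGN2 was at 3.55 to 7.20 CPM outside M4 and at 0.708 and 0.368 CPM in it. Between and around them the genes went both ways. Of 57 coding genes tested that are not members, within 500 kb of EFNB3, 5 were lower and 5 higher, with a median of 0.14. TNFSF12, a TNF family ligand, was lower (-3.41 ± 0.39, adjusted p = 0.00097), CLDN7, a tight junction claudin, was higher (2.21 ± 0.18, adjusted p = 0.00027), and POLR2A was not called (0.27 ± 0.23).

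Over all members, 1036 other protein-coding genes were tested within 500 kb. In M4, 102 of them (9.85%) were lower, against 8.54% of all protein-coding genes tested, and 74 (7.14%) were higher, against 7.61%. The 8.54% includes the 86 members, all of them lower by the rule, which the neighbours leave out, so it overstates the share to compare with. Within 100 kb, 37 of 290 (12.8%) were lower, and within 10 kb 7 of 54 (12.96%).  Of the coding and non-coding neighbours together, 114 were lower, and 50 without M4 replicate 2, when calls over all genes went from 2828 to 1772. The nearest tested coding gene was not called for 69 of the 86 members, lower for 14, of which DBP beside CA11 is itself a member, and higher for 3. HOXB3, 3761 bases from HOXB2, was lower (-1.50 ± 0.30, adjusted p = 0.0096), a call lost without either M4 replicate, and so was CHPT1, a choline phosphotransferase gene beside MYBPC1 (47.3 to 64.2 CPM outside M4, 24.7 and 25.8 CPM in M4, log2 fold change -1.16 ± 0.11, adjusted p = 0.00055), whose call held without either. TGFA beside ADD2, CXCL11 beside ART3 and CAPN14 beside EHD3 were higher.

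Among the neighbours with the smallest adjusted p were ISOC2 near CCDC106 (111 CPM or more in M1 and M2, 63.6 and 59.3 CPM in M3, 18.7 CPM in both M4 libraries, log2 fold change -2.38 ± 0.13, adjusted p = 9.2e-05), SLC27A3 near S100A8 (-2.08 ± 0.19, adjusted p = 0.00042), and MARK4 near APOC1 (-1.25 ± 0.13, adjusted p = 0.00074). The gene with the largest share of lower neighbours among those with at least 4 was MMP2, with 3 lower of 5 tested. IRX6, a homeobox gene 58944 bases from MMP2, went from 4.33 and 3.22 CPM in M1 through 0.182 and 0.289 CPM in M3 to 2 counts and 0 counts in M4, and IRX5 was lower as well (-1.16 ± 0.14, adjusted p = 0.0014).

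Of 204 non-coding genes within 500 kb, 12 (5.88%) were lower, against 5.11% of all non-coding genes tested, and 10 (4.90%) were higher, against 7.38%. Within 10 kb, 3 of 16 were lower, PRKCQ-AS1, GAS1RR and CAVIN2-AS1. PRKCQ-AS1 lies 118 bases from PRKCQ and had a log2 fold change of -1.49 ± 0.25 (adjusted p = 0.0047). CAVIN2-AS1 overlaps exons of CAVIN2 on the opposite strand, and without strand the reads of these 2 genes cannot be told apart within the 238 shared bases, 7.79% of the exon bases of CAVIN2. In all, 22 members shared exon bases with another tested gene, and 8 shared over 10%, among them ART3 with NUP54 (40.1%) and CAMK2B with YKT6 (20.05%).

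**Figure D5:**
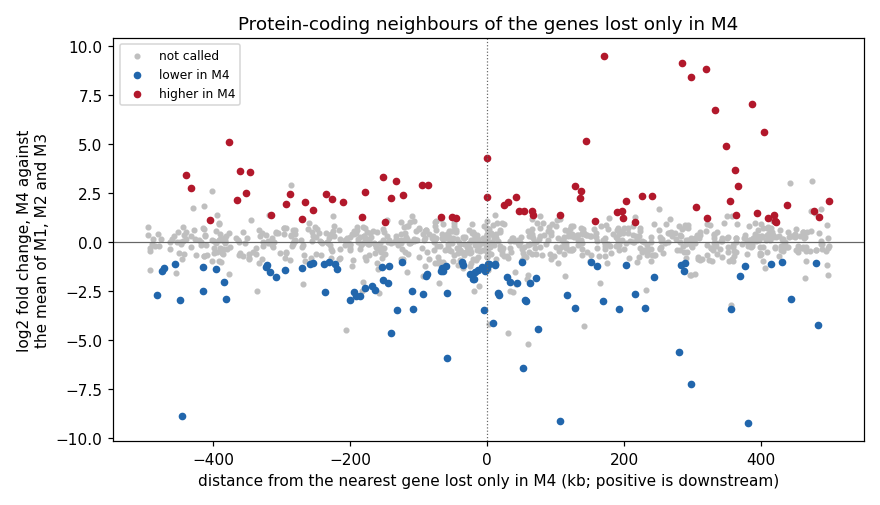
Log2 fold change in M4 against the mean of M1, M2 and M3 (y axis) of the 1036 protein-coding genes within 500 kb of a gene lost only in M4, by distance from the nearest such gene in kb (x axis), with lower genes in blue (102), higher genes in red (74) and those not called in grey. Most neighbours at every distance are grey.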

How the data were processed

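Poly A+ RNA of M1, M2, M3 and M4 acini was sequenced in paired-end TruSeq libraries, 2 per line. The authors deposited expected counts per gene, made with Trimmomatic, STAR on hg19 (GRCh37) and, for counting, RSEM with the GENCODE v19 gene models. Versions of these tools, and whether reads were counted by strand, are not given in the sources used here. The deposited expected counts are not normalized. Here CPM used column sums of the deposited values. For tests the counts were rounded and fitted in R 4.3.3 by the robust quasi-likelihood method of edgeR 4.0.16 (TMM, filterByExpr, all 8 libraries with 1 coefficient per line, Benjamini-Hochberg adjustment over 18431 genes), and a call needed an adjusted p under 0.05 and an absolute log2 fold change above 1. Standard errors are those implied by the F statistic. DESeq2 1.42.0, with limma 3.58.1 loaded by edgeR, and Python 3.11.15 were also used.

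GENCODE release 44, lifted to GRCh37, gave the gene class and position. They matched 94.7% of the genes with a count. Promoter letters came from the GRCh37 genome. The labels gave line and replicate. Totals of 69669970 to 107350344 counts set a floor (3 counts) of 0.0279 and 0.0394 CPM in the M4 libraries. At 10 counts or fewer, where 20 members lay in both M4 libraries, counting error is large.

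The genes, lists and tests were chosen with earlier results of these data known. The text names the 10 lowest ratios, the 10 highest levels in M1 to M3, members near another member or in a list, members called in the 3 comparisons, the 3 nearest the limit on each side, and called neighbours. Values of 1 member and of a few other genes are not reported here. Partner genes and functions were assigned once the members were known. Alternatives were DESeq2, other size factors, no filter, a replicate block, exchanged libraries, left-out libraries, other limits of the rule and other distances. The steps were tested on simulated data.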

Additional observations from a re-analysis of the deposited data

How the results depend on the processing

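The number of genes lost only in M4 moved with the limits. The rule returned 86 genes as reported, 94 with TMM-scaled CPM and 106 with a lowest CPM of 0.5, each time with all 86 included. It returned 40 genes when the gap had to be 8-fold, 236 when it had to be 2-fold and 28 at a lowest CPM of 5. Leaving out 1 library gave 87 to 144 genes, the most without M4 replicate 1, and these always included the 86.

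Members called in M2 against M1 were 5 as reported, 16 with DESeq2, 27 with no filter on low counts, 8 with only those lines fitted, 0 with the doubted libraries exchanged and 0 to 7 without 1 library. With the exchange the signs of ADD2 (-0.15), ABCG1 (0.11) and SDC2 (0.40) were turned on the log2 scale. In M3 against M1 the count of 17 became 29 with DESeq2, 37 with no filter, 11 with only those lines, 1 with the exchange and 9 to 17 without 1 library. In M3 against M2 the count of 3 became 16, 23, 9 and 1 under the same settings, and 1 to 5 without 1 library. The shares of all genes called under these settings are not given beside these counts, and the cause was not tested. The counts without 1 library can include members not called in the main fit. Some members named above lost their call in every such setting.

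Near the members, 114 genes were lower as reported, coding and non-coding together, 41 within 100 kb, 184 within 1 Mb and 50 to 76 without 1 M4 library. Members with another member nearby were 6, and 2 within 100 kb or 11 within 1 Mb. Fewer libraries also lowered the calls in the fixed gene lists (114, then 68 to 91) and over all genes (2828, then 1662 to 1772). The 18 cholesterol synthesis genes called higher were 16 to 18 under every setting tried.

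Replicate differences correlated between lines at -0.063 to 0.242, with only M3 and M4 above 0.1. Replicate numbers were therefore not treated as pairs in the main fit, although the M3 and M4 differences were correlated at 0.242. With a replicate block, 4, 16 and 3 members were called in M2 against M1, M3 against M1 and M3 against M2, 106 nearby genes and 104 list genes were called, and 2670 genes were called in M4. For single genes, 599 of the alternative values kept their call, 122 lost it and 3 reversed. Most of these values were for genes other than members, in M4. Of the 17 members called in M3 against M1, 17 kept their call with DESeq2, 7 with only those lines fitted and 1 with the exchange. Of the 5 called in M2 against M1, 5 kept it with DESeq2, while 3 reversed and 2 lost it with the exchange. RLE size factors changed no count by more than 1.5 times. Counts of 10 or fewer in M4 and the spread between M1 and between M3 replicates limit these values.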
